A study of Mus musculus with 20 samples.

Results

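Kallikreins are secreted serine proteases whose genes lie side by side in 1 cluster. The data here concern 7 kallikrein genes of the skin, Klk5, Klk6, Klk7, Klk8, Klk10, Klk13 and Klk14, and Spink5, the gene of their inhibitor. These 8 genes were taken by name from 22180 genes tested. No cut on their values was used, but earlier results of these data were known. All 8 were measured, each by 1 array feature that carries its symbol alone (numbers 17477266, 17477254, 17477245, 17477237, 17477220, 17477191, 17477184 and 17350203 on the array, in the order just given). The kallikreins are on mouse chromosome 7 and Spink5 is on chromosome 18.

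The arrays were made from abdominal skin of 20 mice of the C57/B6 background aged 9 weeks, 1 array for each mouse. The 4 combinations of diet and cream held 5 mice each. HFD-IMQ mice ate a high fat diet and received imiquimod, HFD-vehicle mice ate the same diet and received vehicle, CD-IMQ mice ate control chow and received imiquimod, and CD-vehicle mice ate chow and received vehicle. Imiquimod, given as 62.5 mg a day of a 5% cream on shaved skin over 5 days, stimulates Toll-like receptor 7 and gives a psoriasis-like inflammation. Tissue was collected 24 h after treatment ended, and the time spent on the diet is not stated in the labels.

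In the outer epidermis, kallikreins are released by granular keratinocytes into the spaces between cells, where they cut the proteins that hold dead cells together and so let the surface shed. They are made as inactive precursors, and KLK5 in human skin can activate itself and other kallikreins. The Spink5 product LEKTI is a chain of inhibitor domains that blocks several of them. Loss of LEKTI gives Netherton syndrome in humans, and in mice it gives overactive proteases and a failed skin barrier.

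Values are log2 expression values after robust multi-array averaging, so a difference of 1 is a 2-fold change. The figure after ± is the standard error for a log2 change and the standard deviation over 5 mice for a group mean. An adjusted p is limma's after Benjamini-Hochberg adjustment over all genes, and a gene was called below 0.05. Array medians lay between 2.86 and 3.04, and a value near them is close to background. Levels of different genes cannot be ranked, since each feature has its own brightness. In whole skin, fewer cells of a type and less RNA per cell cannot be told apart. Of the defining keratinocyte markers, 9 of 10 suprabasal and 6 of 6 basal genes measured were above background in all groups.

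With imiquimod, 4 of the 8 genes rose in mice on the high fat diet and 7 of 8 rose in chow-fed mice, and no member fell. Klk6, Klk8, Klk13 and Klk14 rose in both diets, Klk5, Klk7 and Spink5 were called on chow, and Klk10 in neither diet. Of all genes, 5.89% were called in mice on the high fat diet, 3.65% higher and 2.24% lower, and 10.9% in chow-fed mice, 3.91% higher and 7.02% lower. The median log2 change of the 8 genes was 0.68 on the high fat diet, beside -0.00067 for all genes tested, and 1.27 on chow, beside 0.02 for all genes. Between imiquimod and vehicle the groups did not overlap for 5 members on the high fat diet and for 7 on chow, where 6.06% and 8.89% of all genes were separated in either direction and 3.67% and 3.78% upward.

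**Figure D1:**
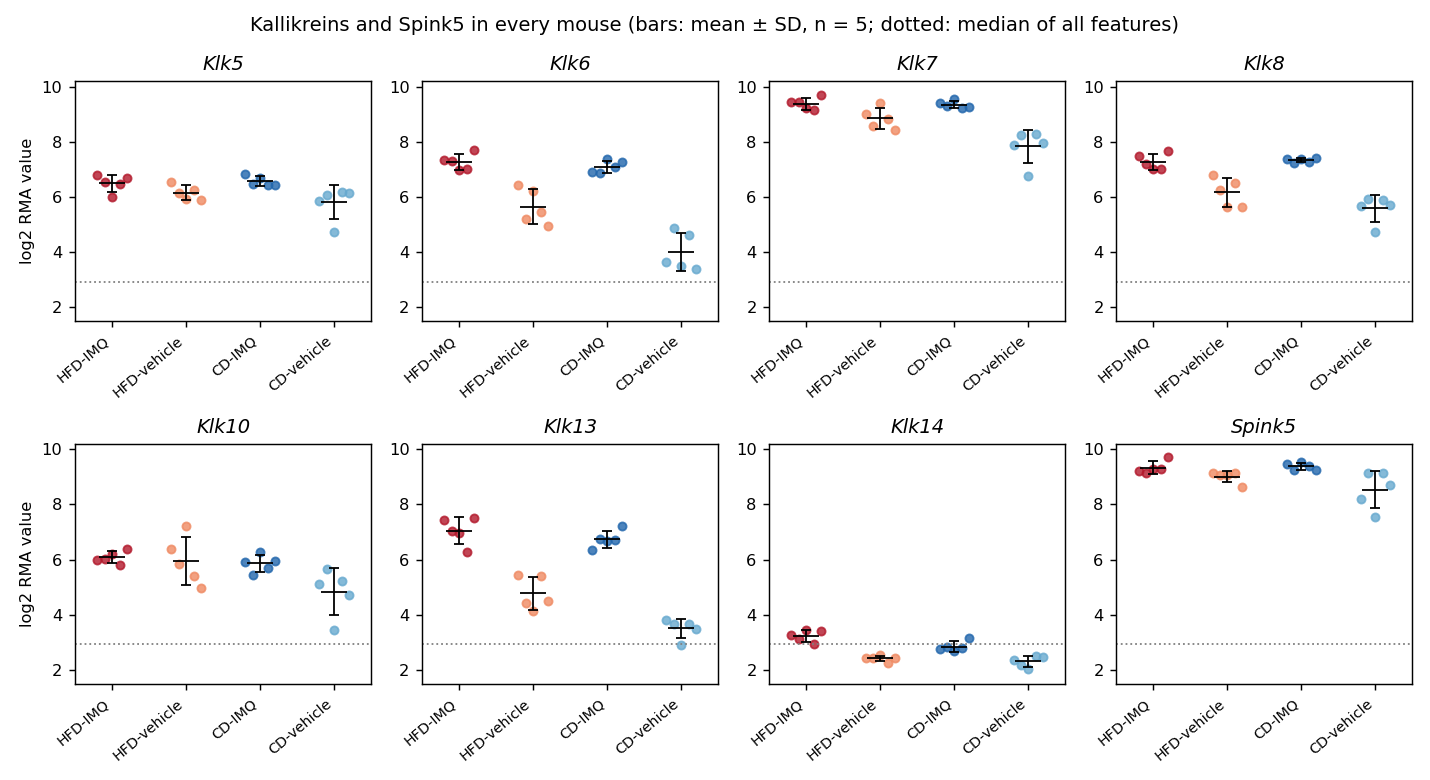
Log2 expression of the 8 genes in each of the 20 mice, 1 panel per gene, with groups along the horizontal axis, a point for each mouse, bars for the group mean and SD and a dotted line at the median of all array features. Klk6, Klk8, Klk13, Klk14 and, narrowly, Spink5 separate all imiquimod-treated mice from all vehicle-treated mice, while Klk10 overlaps between cream and vehicle in both diets.

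Klk5 encodes the trypsin-like protease held to start the shedding cascade. Its log2 values were 6.81, 6.53, 6.02, 6.46 and 6.70 in HFD-IMQ skin, against 6.55, 6.15, 5.94, 6.26 and 5.90 in HFD-vehicle skin. They were 6.84, 6.46, 6.71, 6.42 and 6.43 in CD-IMQ skin, against 5.86, 6.08, 4.74, 6.20 and 6.16 in CD-vehicle skin. The groups on the high fat diet overlapped, whereas the chow-fed groups did not. In mice on the high fat diet the log2 change was 0.34 ± 0.21 and was not called (adjusted p = 0.476). Klk5 rose 1.70-fold in chow-fed mice (log2 change 0.77 ± 0.21, adjusted p = 0.0227). Single mice moved this last call. Without CD-vehicle mouse 3, the lowest, the change was 0.50 with adjusted p = 0.0495, and the call was lost without CD-IMQ mouse 1 (adjusted p = 0.0537) or CD-IMQ mouse 3 (adjusted p = 0.0523). Over 28 other settings, most of which left out 1 mouse, the adjusted p was 0.00955 to 0.0537.

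Klk7 encodes the chymotrypsin-like enzyme that cuts corneodesmosin and desmocollin 1, which join dead cells. In HFD-IMQ skin it measured 9.46, 9.43, 9.21, 9.14 and 9.68, against 9.02, 8.58, 9.39, 8.83 and 8.42 in HFD-vehicle skin. It measured 9.39, 9.30, 9.56, 9.23 and 9.26 in CD-IMQ skin, against 7.90, 8.24, 6.78, 8.29 and 7.94 in CD-vehicle skin. The 5 CD-vehicle mice were the lowest of all 20, and the other groups lay closer together. With the high fat diet the imiquimod change of 0.54 ± 0.22 was not called (adjusted p = 0.186), but without CD-vehicle mouse 3 the same change was called (adjusted p = 0.0368), as it was with array weights (0.65, adjusted p = 0.0376). The rise was 2.87-fold in chow-fed mice (log2 change 1.52 ± 0.22, adjusted p = 6.00e-05).

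Klk14 encodes a trypsin-like kallikrein that contributes to the protease activity of the human skin surface and can activate KLK5 in the test tube. It was near background in all groups but HFD-IMQ, with group means of 3.25 ± 0.21 in HFD-IMQ, 2.42 ± 0.10 in HFD-vehicle, 2.85 ± 0.19 in CD-IMQ and 2.31 ± 0.20 in CD-vehicle skin. The mice of the HFD-IMQ group measured 3.26, 3.11, 3.46, 2.96 and 3.43, against 2.43, 2.46, 2.54, 2.26 and 2.42 in HFD-vehicle skin. CD-IMQ skin measured 2.77, 2.82, 2.68, 2.82 and 3.18, against 2.37, 2.20, 2.03, 2.50 and 2.47 in CD-vehicle skin. Imiquimod-treated and vehicle-treated mice did not overlap in either diet, but the size of a change so close to background is uncertain. The log2 change was 0.82 ± 0.12 on the high fat diet (adjusted p = 9.80e-05) and 0.54 ± 0.12 on chow (adjusted p = 0.00462).

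Klk6 encodes a trypsin-like protease first studied in the brain and also made in the upper epidermis. It measured 7.33, 7.32, 6.99, 7.01 and 7.72 in HFD-IMQ skin, against 6.44, 5.19, 6.21, 5.45 and 4.97 in HFD-vehicle skin. It measured 6.91, 6.87, 7.36, 7.10 and 7.27 in CD-IMQ skin, against 3.65, 4.86, 3.50, 4.61 and 3.40 in CD-vehicle skin. All 10 imiquimod-treated mice lay within 6.87 to 7.72, above every vehicle-treated mouse, and the lowest HFD-vehicle mouse lay above the highest CD-vehicle mouse. The rise with imiquimod was 3.08-fold on the high fat diet (log2 change 1.62 ± 0.28, adjusted p = 0.000628). In chow-fed mice Klk6 rose 8.57-fold (log2 change 3.10 ± 0.28, adjusted p = 8.97e-08).

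Klk13 encodes a trypsin-like kallikrein made in humans by stratified epithelia such as the oesophagus. Its values were 7.46, 7.05, 6.98, 6.27 and 7.49 in HFD-IMQ skin, against 5.44, 4.42, 4.14, 5.41 and 4.49 in HFD-vehicle skin. They were 6.35, 6.74, 6.66, 6.70 and 7.21 in CD-IMQ skin, against 3.82, 3.68, 2.93, 3.66 and 3.48 in CD-vehicle skin. The groups fell into 3 levels, with both imiquimod groups on top and all HFD-vehicle mice above all CD-vehicle mice, of which mouse 3 was at background. Klk13 had the largest log2 change of the 8 genes in both diets. It rose 4.82-fold on the high fat diet (log2 change 2.27 ± 0.25, adjusted p = 3.20e-06) and 9.32-fold on chow (3.22 ± 0.25, adjusted p = 1.09e-08).

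Klk8 encodes neuropsin, a trypsin-like protease known in mice from the hippocampus and from irritated, thickened epidermis. It measured 7.48, 7.20, 7.02, 7.0 and 7.66 in HFD-IMQ skin, against 6.79, 6.24, 5.63, 6.51 and 5.64 in HFD-vehicle skin. It measured 7.36, 7.25, 7.36, 7.26 and 7.40 in CD-IMQ skin, against 5.69, 5.95, 4.73, 5.89 and 5.71 in CD-vehicle skin. The CD-IMQ mice were tightly grouped, with an SD of 0.07, and in both diets every treated mouse was above every vehicle mouse. The rise was 2.15-fold on the high fat diet (log2 change 1.11 ± 0.22, adjusted p = 0.00243) and 3.32-fold on chow (1.73 ± 0.22, adjusted p = 1.33e-05).

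Klk10 encodes a kallikrein first described in humans as a gene silenced in breast cancer cells. Its HFD-IMQ values were 5.99, 6.03, 6.21, 5.82 and 6.40, against 6.39, 5.85, 7.21, 5.41 and 4.98 in HFD-vehicle skin. Its CD-IMQ values were 5.91, 5.45, 6.27, 5.72 and 5.96, against 5.12, 5.68, 3.44, 5.24 and 4.71 in CD-vehicle skin. Imiquimod-treated mice lay close together, whereas vehicle-treated mice spread widely, with an SD of 0.87 on the high fat diet and 0.85 on chow. The change on the high fat diet was 0.12 ± 0.35 (95% interval -0.60 to 0.85, adjusted p = 0.926), and it was 0.44 without HFD-vehicle mouse 3, the highest (adjusted p = 0.581). On chow the log2 change was 1.03 ± 0.35 (interval 0.30 to 1.75, adjusted p = 0.062). It was called without HFD-vehicle mouse 3 (adjusted p = 0.0265), HFD-vehicle mouse 5 (0.0446) or CD-vehicle mouse 2 (1.24, adjusted p = 0.0272) and was 0.68 without CD-vehicle mouse 3, the lowest (adjusted p = 0.187). Of 28 other settings, most of which left out 1 mouse, 6 called that chow-fed change, with adjusted p from 0.0265 to 0.187.

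Spink5, the inhibitor gene, measured 9.21, 9.14, 9.29, 9.29 and 9.74 in HFD-IMQ skin, against 9.13, 9.05, 9.07, 9.14 and 8.64 in HFD-vehicle skin. It measured 9.48, 9.25, 9.54, 9.38 and 9.26 in CD-IMQ skin, against 8.19, 9.12, 7.55, 9.12 and 8.71 in CD-vehicle skin. The groups were separated in both diets, but on the high fat diet the lowest treated and the highest vehicle mouse were equal to 2 decimals. The change on the high fat diet was 0.33 ± 0.21 (interval -0.12 to 0.77, adjusted p = 0.504). Spink5 rose 1.79-fold with imiquimod on chow (log2 change 0.84 ± 0.21, adjusted p = 0.0121). Without CD-vehicle mouse 3 the chow-fed change was 0.60 (adjusted p = 0.0290).

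**Figure D2:**
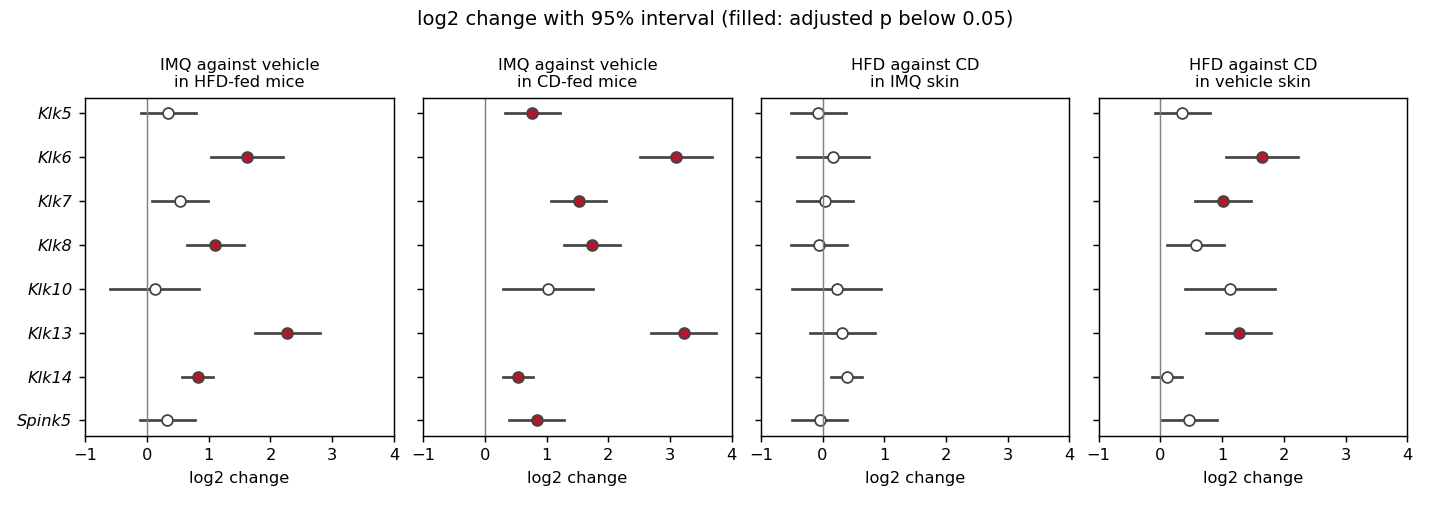
Log2 change of each of the 8 genes with its 95% confidence interval for imiquimod against vehicle in each diet and for the high fat diet against chow in each treatment, the line at 0 marking no change and filled points an adjusted p below 0.05. The intervals of Klk6 and Klk13 lie farthest above 0 for imiquimod, and those for diet in imiquimod-treated skin include 0 for all members except Klk14.

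The enzymes were set against their inhibitor by subtracting the Spink5 value of the same mouse from each gene, a test of whether a gene changed more than Spink5 and not of how much of either protein was present. With imiquimod on the high fat diet 2 of the 7 kallikreins, Klk13 and Klk6, rose more than Spink5, and on chow 4 of 7, Klk13, Klk6, Klk8 and Klk7, did. Of all other genes 0.546% rose relative to Spink5 on the high fat diet and 0.55% on chow, whereas 2.85% and 88.1% were called in either direction. Every gene in this fit shares the Spink5 values, so the many calls on chow are mostly genes that stayed behind Spink5. For that reason each kallikrein is given with its interval and with a two-sided exact permutation test of 5 against 5 mice, in which p = 0.00794 is the smallest that 252 rearrangements can give. These 14 exact tests were added after the values had been seen, and their p are not adjusted.

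On the high fat diet the kallikrein change exceeded that of Spink5 by 1.94 for Klk13 (95% interval 1.38 to 2.51), a further 3.84-fold, and by 1.29 for Klk6 (0.74 to 1.85), each with exact p = 0.00794. Klk8 exceeded Spink5 by 0.78 (0.22 to 1.34, exact p = 0.00794), which missed the limit after adjustment (adjusted p = 0.136) and was called without CD-vehicle mouse 3 (adjusted p = 0.0171). For Klk14 the excess was 0.49 (-0.065 to 1.05, exact p = 0.0238), for Klk7 0.21 (-0.35 to 0.76, exact p = 0.214), for Klk5 0.01 (-0.54 to 0.57, exact p = 0.937) and for Klk10 -0.20 (-0.77 to 0.36, exact p = 0.659). The chow-fed excess was 2.38 for Klk13 (1.81 to 2.94), a further 5.19-fold, 2.26 for Klk6 (1.70 to 2.81), 0.89 for Klk8 (0.33 to 1.44) and 0.68 for Klk7 (0.12 to 1.23), each with exact p = 0.00794. For the other 3 the chow-fed intervals included 0: -0.08 for Klk5 (-0.63 to 0.48), 0.18 for Klk10 (-0.38 to 0.74) and -0.30 for Klk14 (-0.86 to 0.25), with exact p = 0.595, 0.437 and 0.325. Single mice moved these values, which without CD-vehicle mouse 3 were 0.080 for Klk10 and -0.13 for Klk14, and over all single mice left out were 0.080 to 0.34 for Klk10 and -0.48 to -0.13 for Klk14. The chow-fed excess of Klk7 was not called when only the arrays of the groups compared entered the fit (adjusted p = 0.0623).

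**Figure D3:**
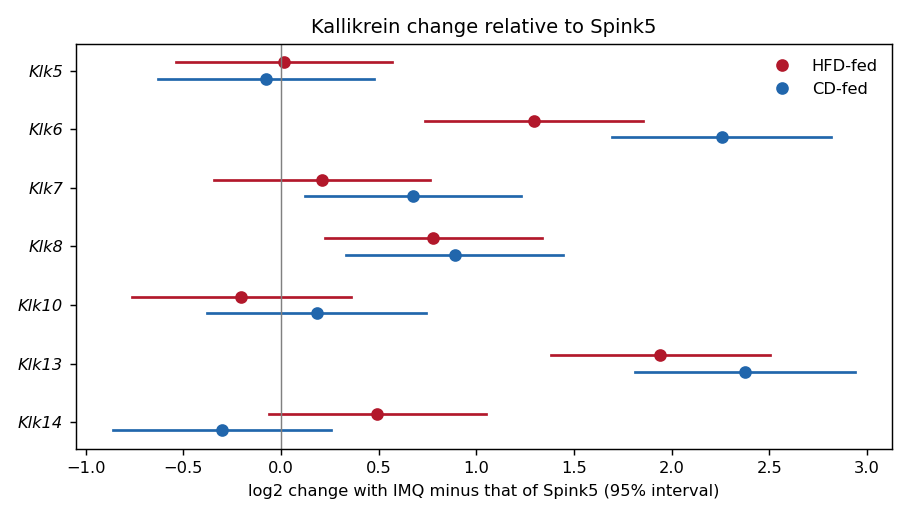
Log2 change with imiquimod of each of the 7 kallikreins minus that of Spink5, with 95% confidence intervals, in mice on the high fat diet and on chow. The intervals of Klk13, Klk6 and Klk8 lie above 0 in both diets, and those of Klk5, Klk10 and Klk14 include 0 in both.

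Diet alone was compared in vehicle-treated skin. There 3 of the 8 genes, Klk6, Klk13 and Klk7, were higher on the high fat diet and none was lower, where 2.18% of all genes were called, 1.22% higher and 0.956% lower. These 3 were also the members whose groups did not overlap, a separation that 3.94% of all genes showed in either direction and 1.64% upward. Klk6 was 3.13-fold higher in HFD-vehicle skin (5.65 ± 0.64) than in CD-vehicle skin (4.0 ± 0.68), with a log2 change of 1.65 ± 0.28 and adjusted p = 0.00233. Klk13 was 2.41-fold higher (4.78 ± 0.61 in HFD-vehicle and 3.51 ± 0.35 in CD-vehicle skin, adjusted p = 0.00818). Klk7 was 2.03-fold higher (8.85 ± 0.38 in HFD-vehicle and 7.83 ± 0.61 in CD-vehicle skin, adjusted p = 0.0128), a call lost when only the arrays of these groups entered the fit (adjusted p = 0.1). The other 5 genes had positive changes that were not called. These were 1.13 ± 0.35 for Klk10 (adjusted p = 0.0956), 0.57 ± 0.22 for Klk8 (0.2), 0.47 ± 0.21 for Spink5 (0.306), 0.35 ± 0.21 for Klk5 (0.486) and 0.11 ± 0.12 for Klk14 (0.755). Klk10 was called without HFD-vehicle mouse 5 (1.38, adjusted p = 0.0323) or CD-vehicle mouse 2 (1.34, adjusted p = 0.0496). Without CD-vehicle mouse 3 the 3 calls were kept, at 1.52 for Klk6, 1.12 for Klk13 and 0.76 for Klk7, while Klk10 had 0.78, Klk8 0.36, Spink5 0.22, Klk5 0.086 and Klk14 0.040. The same HFD-vehicle skin was higher for 8 of 8 markers of the inner root sheath, keratins and trichohyalin of the growing hair follicle, with a mean per mouse of 7.23 to 10.4 in HFD-vehicle and 2.86 to 5.97 in CD-vehicle skin. Their part in the diet result was not tested.

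In imiquimod-treated skin the high fat diet against chow gave 0 of 8 calls, as it gave 0 of all genes in limma (0% called), although 2289 genes and 1 member, Klk14, had an unadjusted p below 0.05. The Klk14 change was 0.39 ± 0.12 (95% interval 0.14 to 0.64, adjusted p = 0.316). For the other 7 genes the log2 change lay between -0.07 for Klk5 and 0.32 for Klk13. The interval for Klk6 was -0.41 to 0.75, so a difference of the size seen in vehicle skin lay outside it. For none of the 8 genes were the groups separated, where 1.67% of all genes were in either direction and 0.992% upward.

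The interaction asks whether the imiquimod change differed between diets. It was called for 0 of 8 members and for 0.663% of all genes, 0.473% higher and 0.189% lower, and 3 members and 3528 genes had an unadjusted p below 0.05. The estimated imiquimod change was smaller on the high fat diet for 7 members and larger for Klk14. The difference was -1.48 ± 0.39 for Klk6 (95% interval -2.29 to -0.66, adjusted p = 0.0776), -0.98 ± 0.31 for Klk7 (adjusted p = 0.115), -0.95 ± 0.36 for Klk13 (adjusted p = 0.195) and 0.28 ± 0.17 for Klk14 (adjusted p = 0.432). Klk6 passed the limit without HFD-vehicle mouse 5 (-1.65, adjusted p = 0.0483) and without CD-vehicle mouse 2 (-1.69, adjusted p = 0.0359), and it had adjusted p = 0.145 without CD-vehicle mouse 3. The members called on chow and not on the high fat diet were therefore not shown to respond differently by diet.

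Within groups, single mice were low or high for most of the 8 genes. CD-vehicle mouse 3 was the lowest of its group for 7 of the 8, on average 0.84 below the group mean. The mean of 10 suprabasal keratinocyte markers was also the lowest of its group in that mouse, at 6.46, as was that of 8 inner root sheath markers, at 2.86. The same held for the means of basal keratinocyte (5.64), sebaceous (5.72), macrophage (7.77) and skeletal muscle markers (8.34). It did not hold for neutrophil or adipocyte markers. HFD-IMQ mouse 5 was the highest of its group for 6 genes, HFD-IMQ mouse 4 the lowest for 5 and HFD-vehicle mouse 5 the lowest for 5. Over all genes HFD-vehicle mouse 3 stood farthest from its group, with 42.8% of the squared distances to the group mean.

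**Figure D4:**
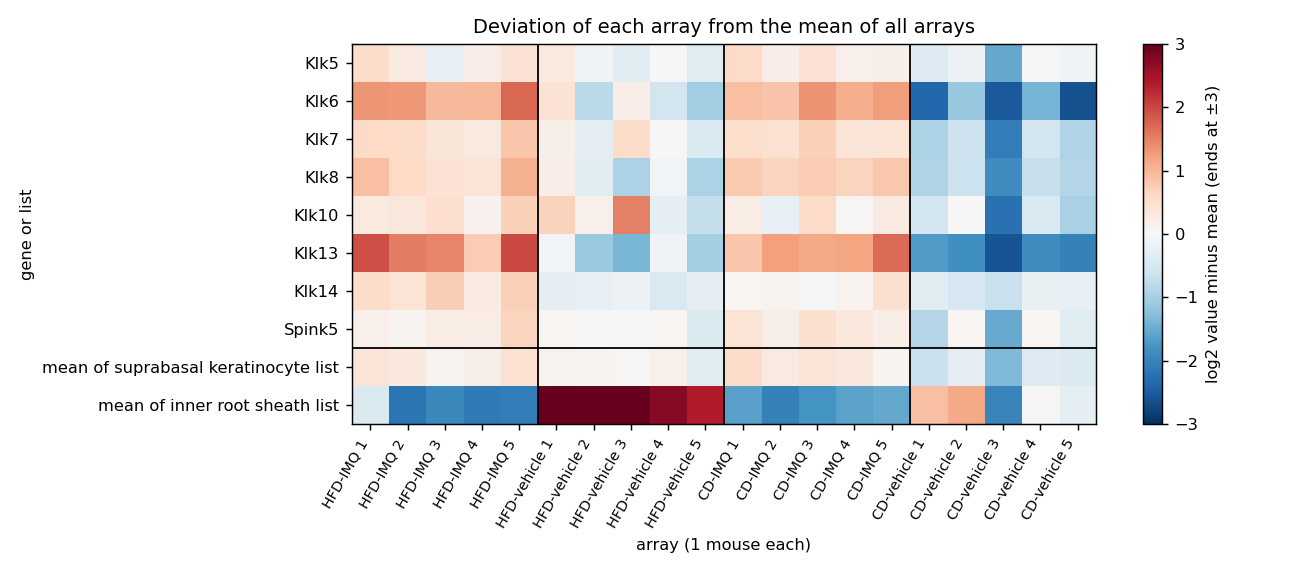
Log2 value of each mouse minus the mean of all 20 mice, as a colour from low (blue) to high (red) that ends at 3 on either side, for the 8 genes and for the means of the suprabasal keratinocyte and inner root sheath markers. CD-vehicle mouse 3 is the lowest of its group for 7 of the 8 genes, and the inner root sheath mean is highest in the HFD-vehicle mice.

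Keratinocyte markers moved in the same comparisons. Of the 10 suprabasal markers 3 rose and 1 fell with imiquimod on the high fat diet, 7 rose and 1 fell on chow, and 3 were higher with the high fat diet in vehicle skin. Their mean per mouse was 7.86 to 8.24 in HFD-IMQ, 7.43 to 7.94 in HFD-vehicle, 7.87 to 8.33 in CD-IMQ and 6.46 to 7.52 in CD-vehicle skin. Keratin 1 (Krt1) rose by a log2 change of 0.86 on the high fat diet and 2.08 on chow, transglutaminase 3 (Tgm3) rose by 1.36 and 2.27, and filaggrin 2 (Flg2) was the marker that fell, with -1.82 and -1.20. Krt2 was the marker near background in all groups.

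Each gene was also set against the mean of these 10 markers, a comparison added after the values had been seen. That mean includes Flg2, which fell with imiquimod in both diets, and Krt2, which was near background. Both hold down the rise of the mean with imiquimod and so enlarge the excess of a member over it. A mean without them was not fitted. With imiquimod on the high fat diet Klk13 (2.0), Klk6 (1.35) and Klk8 (0.83) were still called higher, and the other 5 members were not called. On chow Klk13 (2.29), Klk6 (2.17), Klk8 (0.80) and Klk7 (0.59) were higher, and Klk5 (-0.16), Klk14 (-0.39), Klk10 (0.097) and Spink5 (-0.085) were not called. In vehicle skin the diet difference was 1.03 for Klk6 (adjusted p = 0.00207), 0.65 for Klk13 (0.0184), 0.40 for Klk7 (0.0529) and -0.51 for Klk14 (0.0255). As with Spink5, the subtraction moved many genes at once, with 4.62%, 96.3% and 80.8% of all genes called in either direction in these comparisons. Shares called higher and lower were not counted apart, so the members' calls cannot be compared with all genes by direction.

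Of 6 basal keratinocyte markers 2 rose and 1 fell with imiquimod on the high fat diet, and 1 rose and 1 fell on chow. The inner root sheath markers fell with imiquimod for 8 of 8 genes on the high fat diet and for 5 of 8 on chow, to means of 2.65 to 4.41 in HFD-IMQ and 2.82 to 3.32 in CD-IMQ skin, and 6 of 8 were called lower for the interaction. Neutrophil markers rose for 4 of 6 genes on the high fat diet and 3 of 6 on chow, with means of 3.22 to 4.13 in HFD-IMQ, 2.59 to 3.08 in HFD-vehicle, 3.11 to 3.69 in CD-IMQ and 2.70 to 2.99 in CD-vehicle skin, and 2 of the 6 near background in the imiquimod groups and 4 of 6 in the vehicle groups. Macrophage markers rose for 4 of 5 on the high fat diet and 2 of 5 on chow. Sebaceous markers fell for 4 of 6 on the high fat diet, and on chow 1 rose and 1 fell. Adipocyte markers fell for 1 of 5 on the high fat diet and 2 of 5 on chow, and skeletal muscle markers, at 7.06 to 9.68 over all mice, were called in no comparison. The part of these other cell types in the kallikrein changes was not tested.

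The stretch of chromosome 7 from Klk14 to Klk5 holds 10 protein-coding genes in the RefSeq annotation, all kallikreins, ordered Klk14, Klk13, Klk12, Klk11, Klk10, Klk9, Klk8, Klk7, Klk6 and Klk5, with 7 of them members here. Klk13, with its 9.32-fold rise on chow, lies between Klk14, which was near background in both chow-fed groups, and Klk12, at a log2 change of 0.35 that was not called (adjusted p = 0.202). Klk9 lies between Klk10 and Klk8 and rose by 1.86 ± 0.20 on the high fat diet (adjusted p = 2.44e-06) and by 2.55 ± 0.20 on chow (adjusted p = 1.28e-08). It was also higher by 0.80 ± 0.20 with the high fat diet in vehicle skin (adjusted p = 0.0393). Klk11 rose by 0.60 ± 0.13 on the high fat diet (adjusted p = 0.00367) and 0.85 ± 0.13 on chow (adjusted p = 9.04e-05). At the other end of this stretch Klk6, 8.57-fold higher on chow, adjoins Klk5, 1.70-fold higher. Of 6 other kallikrein genes listed, Klk9 and Klk11 were the 2 called with imiquimod, and Klk1 and Klk15 lay near background.

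**Figure D5:**
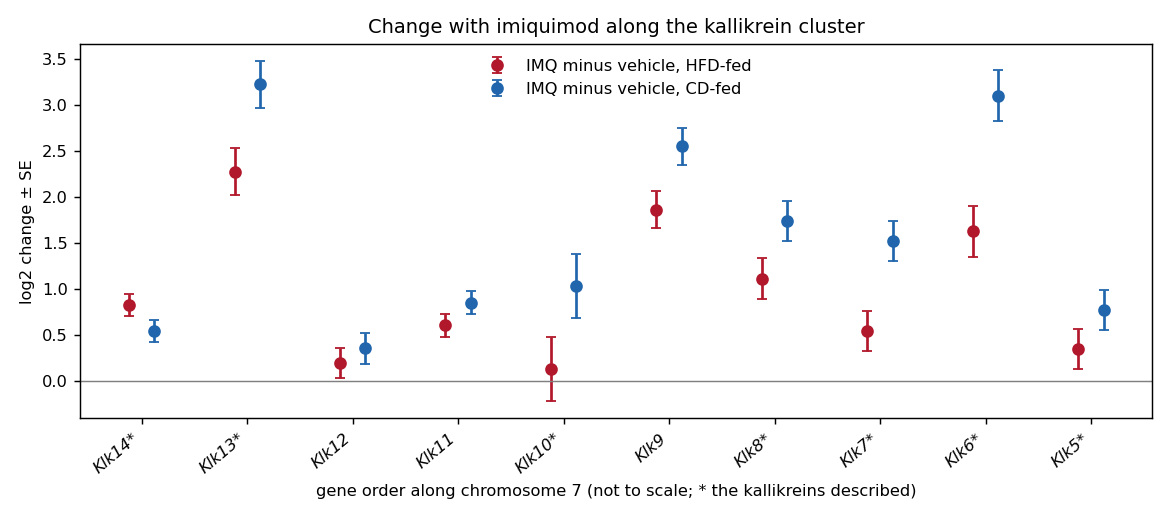
Log2 change with standard error of the 10 kallikrein genes in their order along chromosome 7, for imiquimod minus vehicle in mice on the high fat diet and on chow, with an asterisk at the 7 members and no scale of distance. The largest imiquimod changes, at Klk13, Klk9 and Klk6, are set apart by genes with smaller ones.

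Promoter sequence is shown for Klk13 and Klk6, which changed most, and for Klk8 and Klk10, which share a run of letters with Klk6 while Klk10 was called in no comparison. The windows run from 250 bases before to 50 bases after the start of the transcript on the plus strand of GRCm38.p6 and come from RefSeq, which gave 8 windows for the 7 kallikreins, Klk6 having a pair of starts. They are Klk13 at chr7:43712317-43712616, Klk6 (second start) at chr7:43825200-43825499, Klk8 at chr7:43797327-43797626 and Klk10 at chr7:43780804-43781103. Capitals mark matches to the motifs searched.
Klk13: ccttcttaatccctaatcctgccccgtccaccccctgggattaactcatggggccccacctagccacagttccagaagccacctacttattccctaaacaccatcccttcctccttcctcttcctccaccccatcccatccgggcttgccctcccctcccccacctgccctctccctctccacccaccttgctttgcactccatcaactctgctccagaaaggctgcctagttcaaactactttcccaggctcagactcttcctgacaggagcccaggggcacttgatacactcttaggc
Klk6: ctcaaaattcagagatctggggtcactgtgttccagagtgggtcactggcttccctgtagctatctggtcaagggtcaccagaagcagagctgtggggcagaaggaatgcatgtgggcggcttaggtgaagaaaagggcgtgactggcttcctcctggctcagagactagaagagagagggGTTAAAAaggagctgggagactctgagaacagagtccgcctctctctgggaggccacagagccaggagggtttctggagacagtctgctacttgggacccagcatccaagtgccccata
Klk8: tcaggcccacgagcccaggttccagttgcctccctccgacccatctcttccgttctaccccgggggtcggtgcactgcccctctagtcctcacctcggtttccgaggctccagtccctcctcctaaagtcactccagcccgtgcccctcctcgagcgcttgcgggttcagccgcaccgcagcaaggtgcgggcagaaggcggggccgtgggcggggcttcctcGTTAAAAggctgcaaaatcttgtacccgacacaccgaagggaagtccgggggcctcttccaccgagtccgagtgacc
Klk10: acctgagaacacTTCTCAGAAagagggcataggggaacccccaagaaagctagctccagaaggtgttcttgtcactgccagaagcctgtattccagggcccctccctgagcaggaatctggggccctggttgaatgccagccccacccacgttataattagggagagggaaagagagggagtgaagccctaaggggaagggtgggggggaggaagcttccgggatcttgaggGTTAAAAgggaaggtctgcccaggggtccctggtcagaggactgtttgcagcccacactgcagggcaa
Motifs were searched on both strands: AP-1 (TGANTCA, in 7.81% of 32851 RefSeq windows of this length), the Grainyhead-like motif (AACCNGTT, 2.09%), STAT (TTCNNNGAA, 8.3%), C/EBP (TTGCNNAA, 10.8%) and the TATA box (TATAAA, 13.6%). In the 8 windows the 1 match among these was the STAT motif of Klk10, which starts 238 bases before the transcript start. The letters GTTAAAA, picked after the windows had been viewed and present in 3.41% of all windows, start 69, 27 and 18 bases before the starts of Klk6, Klk8 and Klk10. The Klk13 window holds no match, which says only that these letters are not in it.

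Other proteases, inhibitors and substrates were followed as lists, in whole skin that does not tell which cells made them. Of 12 other proteases, among them lysosomal enzymes and enzymes that can activate kallikreins, 4 rose and 1 fell with imiquimod on the high fat diet, 7 rose and 1 fell on chow, and 4 were higher with the high fat diet in vehicle skin. Their median log2 change was 0.26, 0.42 and 0.12 in these comparisons, beside medians of at most 0.02 for all genes. Casp14, which degrades filaggrin, rose by 1.51 ± 0.32 on the high fat diet (adjusted p = 0.00445) and 2.97 ± 0.32 on chow (adjusted p = 1.76e-06), and was higher by 1.53 ± 0.32 with the high fat diet in vehicle skin (adjusted p = 0.0109). The membrane protease gene Prss27 rose by 1.19 ± 0.21 on the high fat diet and 1.49 ± 0.21 on chow. Tmprss13, a transmembrane serine protease, and Prss8, which encodes prostasin, rose on chow by 1.29 ± 0.18 and 1.15 ± 0.24, and were higher by 0.75 ± 0.18 and 1.01 ± 0.24 with the high fat diet in vehicle skin. St14, which encodes matriptase, the activator of prostasin, was the gene of this list that fell on the high fat diet (-1.04 ± 0.30, adjusted p = 0.0399), and in vehicle skin it was higher with that diet (1.12 ± 0.30, adjusted p = 0.0490). For St14 HFD-vehicle mouse 3 was at 7.25, with the others at 5.29 to 6.33. CD-vehicle mouse 3 was at 3.75, with the others at 5.10 to 5.38. Calls gene by gene without single mice were examined for the members only. The lysosomal protease gene Lgmn rose by 0.89 ± 0.14 on the high fat diet (adjusted p = 0.000259). Plau, which encodes urokinase, was the 1 gene to fall on chow (-0.57 ± 0.14, adjusted p = 0.0116) and was named after its value was seen.

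Of 10 other protease inhibitors 2 rose with imiquimod on the high fat diet, 4 on chow and 2 were higher with the high fat diet in vehicle skin, and none fell. The Kazal-type inhibitor gene Spink7 rose by 1.91 ± 0.28 on the high fat diet and 1.95 ± 0.28 on chow, both against vehicle means near background (2.86 in HFD-vehicle and 2.41 in CD-vehicle skin), so that the sizes are uncertain. Slpi, the secreted leukocyte protease inhibitor, rose by 1.13 ± 0.28 on the high fat diet (adjusted p = 0.0144) and 0.99 ± 0.28 on chow (adjusted p = 0.0225). The chow-fed groups overlapped for Slpi, since CD-vehicle mouse 1 was at 4.845. The other CD-vehicle mice were close to background, at 2.955 to 3.163. Wfdc5 and Wfdc12, whey acidic protein genes, rose on chow by 1.42 ± 0.20 and 1.17 ± 0.21. With the high fat diet in vehicle skin Spint1, an inhibitor of matriptase, was higher by 0.91 ± 0.22 (adjusted p = 0.0345) and Wfdc12 by 0.83 ± 0.21 (adjusted p = 0.0382). For Spint1 HFD-vehicle mouse 3 was at 6.74, with the others at 5.13 to 5.90. CD-vehicle mouse 3 was at 4.25, with the others at 4.64 to 5.31.

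Substrates and downstream genes rose for 1 of 9 measured with imiquimod on the high fat diet and 4 on chow, and 2 were higher with the high fat diet in vehicle skin. On the high fat diet this was Il1b, which encodes a cytokine precursor that proteases can mature (2.16 ± 0.43, adjusted p = 0.00237). On chow these were filaggrin, Flg (1.84 ± 0.26, adjusted p = 4.46e-05), desmocollin 1, Dsc1 (1.48 ± 0.23, adjusted p = 0.000152), desmoglein 1 beta, Dsg1b (1.19 ± 0.24, adjusted p = 0.00206), and corneodesmosin, Cdsn (1.12 ± 0.20, adjusted p = 0.000765). Genes of the joining proteins that kallikreins cut were thus among those that rose on chow together with Klk5 and Klk7. In vehicle skin Dsc1 was higher with the high fat diet by 1.11 ± 0.23 (adjusted p = 0.00991) and Flg by 0.99 ± 0.26 (adjusted p = 0.0431). No gene of the protease, inhibitor or substrate lists was called for diet in imiquimod-treated skin or for the interaction.

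For each member called in any comparison, the genes with the closest pattern over the 20 mice were found by the root mean square (RMS) difference between mean-centred log2 values, a description with no test. For Klk7, whose own RMS deviation was 0.715, the nearest was Dsc1 at 0.133, the desmocollin just named, followed by Slc34a2 (0.210) and Dhrs9 (0.220). For Klk5 (own deviation 0.455) they were the suprabasal genes Dmkn (0.151) and Sbsn (0.180) with Hal (0.172), the histidine-degrading enzyme of the epidermis. For Klk6 (1.39) they were Trex2 (0.367), an exonuclease of keratinocytes, Chil1 (0.406) and Endou (0.429). For Klk13 (1.5) they were Il1f9 (0.346), the interleukin 36 gamma gene, Lce3e (0.388) and the neighbour Klk9 (0.426). Klk8 (0.816) lay closest to Them5 (0.220), Tprg (0.230) and Calm4 (0.232). Klk14 (0.403) lay closest to Gsto1 (0.173), Atp6v1b2 (0.184) and Stom (0.184). Spink5 (0.477) lay closest to Car13 (0.143), Tlcd3a (0.162) and Mal2 (0.176). Among the 8 genes the closest pair was Klk5 and Spink5, at an RMS difference of 0.231.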

How the data were processed

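Values are the authors' deposited log2 values, made by RMA with the affy package per the submitters' processing notes; for versions, scan batches and the genome build the sources used here give nothing. Per the labels' protocols, 300 ng of total RNA was labelled for each array. Of 41345 features 23521 carried 1 gene symbol, 1814 several and 16010 none; each of 22180 genes was taken from its single-symbol feature with the highest mean, with no filter on dim genes. limma 3.58.1 in R 4.3.3 (lmFit, eBayes) fitted the 4 groups over all 20 arrays for 5 contrasts, and 2 further fits after subtracting Spink5. Exact permutation tests used 252 rearrangements. Figures used Python 3.11.15 and matplotlib 3.10.9. The fits were tested on simulated data. Members, lists, tests and alternatives were chosen with earlier results of these data known. Named genes were all members, up to 4 called genes with the largest change of each pathway list per comparison, and 3 nearest genes of each called member. Klk12 was named as a neighbour, and Plau, Krt1, Tgm3, Flg2 and Krt2 were named after their values were seen. Krt5, Soat1 and F2rl1 had no single-symbol feature. Of the single-symbol features 23328 matched RefSeq. Replicate numbers did not pair the mice: residuals correlated above 0.1 in 4 of 30 same-numbered pairs of arrays (-0.217 to 0.320). Alternatives changed normalization, centring, dim genes, feature choice, array weights, variance prior, the arrays fitted, the replicate block and single mice. Each member has 1 single-symbol feature, so the feature choice could not change its values. P-values of limma rest on 1 spread per gene, pooled within all 4 groups and drawn toward that of other genes. A mouse outside a comparison can therefore move its p-value, and 5 mice per group limit the precision.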

Additional observations from a re-analysis of the deposited data

Results flagged for a closer look

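A Dixon test for 1 value far from the other 4 of its group was run on the 8 genes in 4 groups. Of these 32 checks 6 were positive, where chance gives about 1 in 20 for a single check. The checks share mice and are not independent, so 1 unusual mouse can give several. Spink5 was high in HFD-IMQ mouse 5 (9.74, others 9.14 to 9.29) and low in HFD-vehicle mouse 5 (8.64, others 9.05 to 9.14). CD-IMQ mouse 5 was high for Klk14 (3.18, others 2.68 to 2.82). CD-vehicle mouse 3 was low for Klk5 (4.74, with the other 4 mice at 5.86 to 6.20), for Klk7 (6.78, others 7.90 to 8.29) and for Klk8 (4.73, others 5.69 to 5.95).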

How the results depend on the processing

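Over the 28 other settings Klk6, Klk8 and Klk13 stayed called with imiquimod on the high fat diet, as did Klk6, Klk7, Klk8, Klk13 and Spink5 on chow and Klk6 and Klk13 for diet in vehicle skin. Klk14 stayed called in both diets in the 27 that tested it, since the filter on dim genes removed it. The replicate block left the member counts at 4 on the high fat diet, 7 on chow and 3 for diet in vehicle skin, with 1209, 2247 and 361 genes called. It gave 0 and 124 genes for diet in imiquimod-treated skin and for the interaction, and 2 and 4 kallikreins relative to Spink5 on the high fat diet and on chow. Diet in imiquimod-treated skin gave 1 gene with the dim filter and 1 with a trended robust prior, and diet in vehicle skin gave 137 with only the arrays compared. Leaving out single mice gave 990 to 1370 genes for imiquimod on the high fat diet, 1741 to 2636 on chow, 231 to 574 for diet in vehicle skin, 0 to 20 in imiquimod-treated skin and 57 to 198 for the interaction. Members called higher numbered 4 to 5, 6 to 8 and 3 to 4 in the first 3 of these, 0 to 1 were lower for the interaction, and 2 to 3 kallikreins on the high fat diet and 4 to 4 on chow differed from Spink5. The share of called genes that were higher, 35.8% for imiquimod on chow, was 46.0% after another quantile normalization. For the interaction 71.4% became 58.6% after that, 81.7% after centring and 54.5% without HFD-vehicle mouse 3, and for diet in vehicle skin 56.1% became 38.7% with only the arrays compared.

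Several values took the other sign. Relative to Spink5 on chow Klk5 was 0.031 after quantile normalization and 0.024 without CD-vehicle mouse 1. The same on the high fat diet was -0.057, -0.091 and -0.042 for Klk5 without HFD-vehicle mouse 3 and HFD-IMQ mouse 1 or 2 (range without single mice -0.091 to 0.13), and for Klk10 0.090 without HFD-vehicle mouse 3 (range -0.37 to 0.090). Klk10 with imiquimod on the high fat diet was -0.015 and -0.12 without HFD-vehicle mouse 4 or 5 (range -0.12 to 0.44). For diet in imiquimod-treated skin Spink5 was 0.0013 without HFD-IMQ mouse 2, Klk5 0.052 and Klk8 0.0084 without mouse 3, Klk8 0.014 without mouse 4 and Klk7 -0.039 without mouse 5 (range -0.039 to 0.097). Relative to the suprabasal markers, chosen after seeing the data, 4 members were higher with imiquimod on chow. In that comparison 96.3% of all genes were called in either direction. With diet in vehicle skin Klk6 and Klk13 were higher and 1 member, Klk14, was lower, where 80.8% of all genes were called in either direction. For the interaction after that subtraction 1 was higher (Klk14, 0.94, adjusted p = 0.0204, from 0.28 and not called before it), where 35.1% of all genes were called in either direction. There imiquimod on chow gave Klk5 -0.16, Klk14 -0.39 and Spink5 -0.085, all 3 called higher before the subtraction, on the high fat diet Klk10 -0.15, diet in vehicle skin Klk5 -0.27, Klk8 -0.051, Klk14 -0.51 and Spink5 -0.15, and the interaction Klk5 0.23, Klk8 0.029 and Spink5 0.14. Within a comparison the subtraction moved every gene by the same amount, the change of the marker mean. The shifts relative to the markers therefore follow from the subtraction itself. Why the markers changed, and the cause of the other sign changes, was not tested.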
